A study of Mus musculus with 6 samples.

Results

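The expression of 10 genes of the Notch pathway was examined in tumor-initiating cells (TICs) of murine mammary carcinomas and in the tumor cells outside the TIC gate. The genes are the receptors Notch1, Notch2 and Notch4, the ligands Jag1, Jag2, Dll1 and Dll4, and the target genes Hes1, Hey1 and Heyl. They were chosen by symbol, and each symbol matched 1 of the 41388 Ensembl genes in the count data. By exactTest of edgeR none of the 10 genes passed the threshold of 0.1 on the adjusted p-value, against 189 of 12192 genes tested (1.55%). Jag1 was the only gene of the 10 whose TIC samples all lay above all other samples, with a mean of 113 ± 28.1 CPM (counts scaled to the depth of each sample) in TICs and 62.0 ± 4.54 CPM in the other tumor cells (mean ± SD, n = 3 each). Among all genes tested, 937 of 12192 had all TIC samples above all others, so that 1 of 10 is near the share over all genes.

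Both groups came from mammary tumors of female MMTV-PyMT mice (strain FVB/N-TgN(MMTVPyVT)634Mul/J), in which a mouse mammary tumor virus promoter drives the polyoma middle T antigen in the mammary epithelium, so that cells of every sample come from mice with this transgene. TICs were CD24+CD90+CD45- cells (3 samples). Removal of CD45+ cells was a criterion of the study's sorting, and the study states it for the comparison population as well. The 3 samples of the comparison group are called non-CD24+CD90+ tumor cells here. The study's methods describe them as cells negative for either or both markers, whereas the series description calls them CD24-CD90- cells. TICs came from mice of 12 weeks, and no separate age is given for the comparison group. For each sample 4 cell sorts were pooled, and the study describes each replicate as pooled tumors of 4 mice. It gives 12 mice in total, without saying clearly whether this counts each group or both groups. If it counts both, the groups share animals. Whether a TIC sample and a sample of the other group came from the same mice is not given in the sources used here. Total counts were 6781239 to 8450038 per sample in non-CD24+CD90+ tumor cells and 8114933 to 9100552 in TICs, and 3 counts corresponded to 0.33 to 0.442 CPM. In a principal component analysis TIC replicate 3 stood apart, at 165 on the first component (31% of the variance) against -56.9 to -5.51 for the other 5 samples. TIC replicate 2 stood apart on the second component (22.7% of the variance), at -136 against -8.66 to 66.4 for the others. Results that rest on either of them are also given without it. The samples were numbered in the order of their labels, so that a replicate number is only a name. Of the genes of the sorting markers, Cd24a had a lower mean in TICs, which were sorted as CD24+, with 440, 315 and 356 CPM against 402, 404 and 602 CPM (log2 fold change -0.34, adjusted p = 0.985 in edgeR's exactTest). Thy1, which encodes CD90, had 90.7, 207 and 70.3 CPM in TICs and 75.9, 56.7 and 21.6 CPM in the other samples, with overlapping groups (log2 fold change 1.25, adjusted p = 0.350 in edgeR's exactTest). Ptprc, which encodes CD45, had counts in 1 sample only (4.82 CPM). Epcam, an epithelial adhesion molecule, was present in all samples, with 1115 to 1254 CPM in TICs and 1397 to 1547 CPM in the other tumor cells (adjusted p = 0.955 in edgeR's exactTest). In sorted pools, fewer cells that express a gene and less RNA of it per cell cannot be told apart.

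Notch receptors are single-pass membrane proteins that are activated by ligands on neighbouring cells. Ligand binding exposes the receptor to cleavage by an ADAM protease and then by gamma-secretase, and the released intracellular domain enters the nucleus, where it joins the DNA-binding protein RBPJ and a Mastermind coactivator and turns on genes of the Hes and Hey families of transcriptional repressors. In the mammary gland the pathway is known for its part in the choice of the luminal fate. In blood vessels Notch4 and Dll4 are typical of endothelial cells, and Dll4 governs the selection of tip cells in sprouting vessels. Transcript levels of receptors and ligands do not measure cleavage of the receptor.

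The genes lie on chromosomes 2, 3, 4, 12, 16 and 17 (GENCODE release M21 on GRCm38). Upstream sequence was available from RefSeq (GRCm38.p6) for 7 of the 10 genes, in 8 windows, and not for Hes1, Hey1 and Heyl. The sequence immediately before the start of Jag1, Notch4 and Dll4 is shown. Jag1 was chosen as the ligand with the most distinct groups. Notch4 and Dll4 were chosen because both are typical of endothelial cells and had the largest positive log2 fold changes of the 10 genes. Each sequence is on the strand of its gene and ends 1 base before the annotated start. Capitals mark AGGAAG, a string that contains the shorter GGAA core of ETS transcription factor motifs (searched on both strands). Stretches of GGAA outside this string, as in the Notch4 and Dll4 sequences, were not marked or counted.
Jag1, chr2:137116645-137116770, minus strand: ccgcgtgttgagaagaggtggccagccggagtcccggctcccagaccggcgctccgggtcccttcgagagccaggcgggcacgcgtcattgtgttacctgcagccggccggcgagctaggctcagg
Notch4, chr17:34564045-34564267, plus strand: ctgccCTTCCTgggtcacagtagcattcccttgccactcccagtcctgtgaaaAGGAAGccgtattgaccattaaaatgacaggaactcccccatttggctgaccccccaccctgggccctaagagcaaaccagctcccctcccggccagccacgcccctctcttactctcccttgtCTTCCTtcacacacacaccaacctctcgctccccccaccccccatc
Dll4, chr2:119325534-119325783, plus strand: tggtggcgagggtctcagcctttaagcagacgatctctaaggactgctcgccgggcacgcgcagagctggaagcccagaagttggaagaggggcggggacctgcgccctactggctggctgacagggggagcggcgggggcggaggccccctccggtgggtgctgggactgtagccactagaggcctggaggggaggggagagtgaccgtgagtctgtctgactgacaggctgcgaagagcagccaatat
The Notch4 sequence (223 bases) held 3 matches to AGGAAG and those of Jag1 (126 bases) and Dll4 (250 bases) held 0. This does not mean that Jag1 and Dll4 lack other forms of the ETS motif. Among the 8 windows of 250 bases upstream of the RefSeq start AGGAAG was present in 2, those of Notch4 and Dll1, against 29.5% of 32851 such windows of all genes. The core motif bound by RBPJ (TGGGAA, both strands) was in 0 of the 8 windows, against 21.6% of all windows, which says only that these letters are not in the windows searched.

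Levels are given as CPM normalized by the TMM method, in the order of replicates 1, 2 and 3, and fold changes are TIC over non-CD24+CD90+ tumor cells from the edgeR fit. All 10 genes passed the filter on low counts, which required over 1 CPM in 3 or more samples. Of them, 8 had a positive and 2 a negative log2 fold change, with a median of 0.53, and over all 12192 genes tested the median was -0.0061 and 49.7% were positive. Jag1 was the only one with an unadjusted p-value below 0.05 in exactTest (7.85% of all genes tested) and the only one whose groups did not overlap (15.2% of all genes tested). With 3 samples against 3, the two-sided exact permutation test cannot give a p-value below 0.1. The p-values describe the spread between pools of sorted cells.

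**Figure D1:**
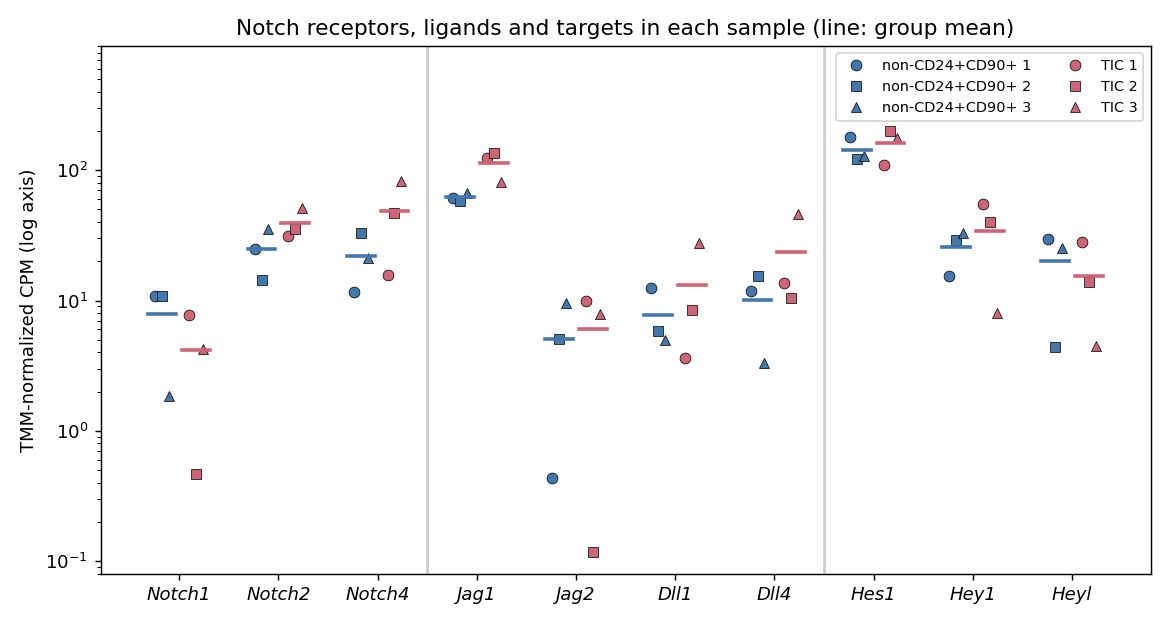
TMM-normalized CPM of the 10 Notch pathway genes (log axis) in each of the 3 TIC and 3 non-CD24+CD90+ tumor cell samples, with 1 point per sample, numbered by replicate, and a line at each group mean. The groups are separate for Jag1 (81.7 to 135 CPM against 57.8 to 66.8 CPM) and overlap for the other 9 genes, and Notch1 and Jag2 span the widest ranges.

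Among the receptors, Notch4 and Notch2 had higher means in TICs and Notch1 a lower one, and no receptor passed the test. Notch4 (ENSMUSG00000015468, chr17:34564268-34588503, plus strand), a receptor typical of endothelial cells, had 11.5, 32.8 and 21.0 CPM in the non-CD24+CD90+ tumor cells and 15.7, 46.9 and 83.3 CPM in TICs. The 2 highest values were those of TIC replicates 2 and 3, whereas TIC replicate 1 lay within the range of the other group. Its log2 fold change was 1.16 (SE 0.66, 95% interval -0.13 to 2.44, edgeR exactTest adjusted p = 0.787). Without TIC replicate 3 the log2 fold change of Notch4 was 0.54, and without TIC replicate 1 it was 1.59. Both were short of the threshold (adjusted p = 1 and 0.231 in exactTest).

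Notch2 (ENSMUSG00000027878, chr3:98013527-98150361, plus strand), a receptor that is broadly expressed in epithelium and stroma, had 24.9, 14.4 and 35.6 CPM in the non-CD24+CD90+ tumor cells and 31.1, 35.7 and 51.7 CPM in TICs. The groups overlapped, with the lowest value in replicate 2 of the other tumor cells and the highest in TIC replicate 3. The log2 fold change was 0.66 (SE 0.58, 95% interval -0.48 to 1.80, adjusted p = 0.989 in edgeR's exactTest). It stayed positive when any 1 sample was left out, between 0.38 and 1.01. A same-strand gene model absent from the count data, Gm42820, shares 5.02% of the exon bases of Notch2.

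Notch1 (ENSMUSG00000026923, chr2:26457903-26516663, minus strand), a receptor of luminal progenitors in the mammary gland, was low in most samples. It had 10.8, 10.9 and 1.86 CPM in the non-CD24+CD90+ tumor cells and 7.80, 0.466 and 4.22 CPM in TICs. The lowest value, in TIC replicate 2, rested on 4 counts (exact 95% Poisson interval 1.09 to 10.2, counting error only), against 71 counts in TIC replicate 1. The spread within each group thus exceeded the difference between groups, with a log2 fold change of -0.91 (SE 1.497, 95% interval -3.85 to 2.02, adjusted p = 1 in edgeR's exactTest). Without TIC replicate 2 the log2 fold change of Notch1 was -0.38. The biological coefficient of variation of Notch1 in the fit was 1.26, against a median of 0.618 over all genes.

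Notch3, the remaining receptor, is common in pericytes and vascular smooth muscle and was added for comparison. It had 5.54, 11.3 and 30.3 CPM in the non-CD24+CD90+ tumor cells and 26.2, 39.4 and 17.1 CPM in TICs, with a log2 fold change of 0.81 (SE 0.79, 95% interval -0.75 to 2.36, adjusted p = 1 in edgeR's exactTest). Its groups overlapped as well, and its highest sample was TIC replicate 2 rather than replicate 3. Divided by the length of their exons, the mean levels of the receptors in TICs were 6.03 CPM per kilobase for Notch4, 3.66 for Notch2, 3.41 for Notch3 and 0.293 for Notch1. In non-CD24+CD90+ tumor cells the same measure was 2.70 for Notch4, 2.32 for Notch2, 1.95 for Notch3 and 0.552 for Notch1. The per-sample ranges of Notch2, Notch3 and Notch4 overlapped in each group. Notch1 lay below all of them in TICs, whereas in the other tumor cells its range overlapped with that of Notch3.

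Jag1 was the most abundant ligand transcript in every sample and the gene with the clearest difference of the 10. Jag1 (ENSMUSG00000027276, chr2:137081456-137116644, minus strand), a ligand of the Jagged type that signals to neighbouring cells, had 61.6, 57.8 and 66.8 CPM in the non-CD24+CD90+ tumor cells, a narrow range. In TICs it had 123, 135 and 81.7 CPM. All TIC samples were above all other samples, although TIC replicate 3 was much closer to them than replicates 1 and 2. The fold change was 1.83 (95% interval 1.13 to 2.97), a log2 fold change of 0.87 (SE 0.36). The unadjusted p-value was 0.0157 and the adjusted p-value 0.368 in edgeR's exactTest, and the exact permutation p-value was 0.1, the smallest possible. Thus the difference in Jag1 did not pass the threshold after adjustment over 12192 genes. Without TIC replicate 2, the sample with the highest Jag1, the unadjusted p-value was 0.0766, and without replicate 2 of the other tumor cells it was 0.0602 (exactTest). Over the alternative fits and with each sample left out, the log2 fold change of Jag1 ranged from 0.73 to 1.08 and its adjusted p-value from 0.150 to 0.866. Jag1 was the member with the smallest tagwise coefficient of variation but for Hes1, 0.300 against 0.284.

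The Delta-like ligands were highest in TIC replicate 3. Dll4 (ENSMUSG00000027314, chr2:119325784-119335962, plus strand), a ligand of vascular endothelium, had 11.8, 15.3 and 3.29 CPM in the non-CD24+CD90+ tumor cells and 13.7, 10.5 and 46.4 CPM in TICs. Replicates 1 and 2 of the TICs lay within the range of the other tumor cells. The log2 fold change of 1.21 (SE 0.93, 95% interval -0.61 to 3.03, adjusted p = 0.970 in edgeR's exactTest) was 0.28 without TIC replicate 3. Dll1 (ENSMUSG00000014773, chr17:15367354-15376872, minus strand), a ligand reported for basal mammary cells, had 12.5, 5.79 and 5.01 CPM in the non-CD24+CD90+ tumor cells and 3.63, 8.39 and 27.4 CPM in TICs. Here too a single TIC sample was above the other group and TIC replicate 1 was the lowest of all 6. The log2 fold change was 0.76 (SE 1.15, 95% interval -1.499 to 3.01, adjusted p = 1 in edgeR's exactTest), and it was -0.35 without TIC replicate 3. Antisense genes overlap 5.56% of the exon bases of Dll4 (Gm14207, 0 to 21 counts per sample) and 20.5% of those of Dll1 (A930024N18Rik, 0 to 14 counts). For Notch1, antisense genes overlap 7.5% (0610009E02Rik) and 2.91% (Gm13568) of the exon bases. The strand setting of the counting is not given in the sources used here.

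Jag2 (ENSMUSG00000002799, chr12:112907819-112929776, minus strand), the other Jagged ligand, varied more within the groups than any other of the 10 genes. It had 0.438, 5.11 and 9.58 CPM in the non-CD24+CD90+ tumor cells and 10, 0.117 and 7.92 CPM in TICs. The value of TIC replicate 2 rested on 1 count (exact 95% Poisson interval 0.0253 to 5.57), whereas TIC replicate 1 had 91 counts. The log2 fold change was 0.25 (SE 1.67, 95% interval -3.01 to 3.52, adjusted p = 1 in edgeR's exactTest). Without TIC replicate 2 the log2 fold change of Jag2 was 0.83. Dll3, which completes the Delta-like and Jagged ligands, had 0 counts in all 6 samples.

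Per kilobase of exons, Jag1 had the highest mean level of the ligands in both groups, 19.5 CPM per kilobase in TICs and 10.7 in non-CD24+CD90+ tumor cells. Dll4 followed with 6.12 and 2.63, Dll1 with 3.12 and 1.84 and Jag2 with 0.863 and 0.724. The sum over Jag1, Jag2, Dll1, Dll3 and Dll4 was 16.7, 16.0 and 14.9 CPM per kilobase in non-CD24+CD90+ tumor cells and 27.1, 27.9 and 33.7 in TICs. All TIC samples were above the other samples in this sum, with a ratio of means of 1.86 (1.73 to 1.94 over other scalings and with each sample left out). The sum was formed after the values of the single genes were known and is a description without a test.

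The ligands that made up the sum differed between TIC samples. Jag1 accounted for 78.3% and 83.1% of it in TIC replicates 1 and 2, and for 41.6% in replicate 3. In TIC replicate 3, Dll4 accounted for 35.8% and Dll1 for 19.3%. In non-CD24+CD90+ tumor cells the share of Jag1 was 62.0% to 77.0%, which overlapped with that in TICs. The receptors were mixed in a similar way, with Notch4 at 22.6%, 41.4% and 58.9% of the receptor sum in the 3 TIC samples and at 27.6%, 53.7% and 26.6% in the other tumor cells. The receptor sum itself was 5.19, 7.57 and 9.79 CPM per kilobase in non-CD24+CD90+ tumor cells and 8.62, 14.03 and 17.5 in TICs, with overlapping groups and a ratio of means of 1.78 (1.51 without TIC replicate 3).

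**Figure D2:**
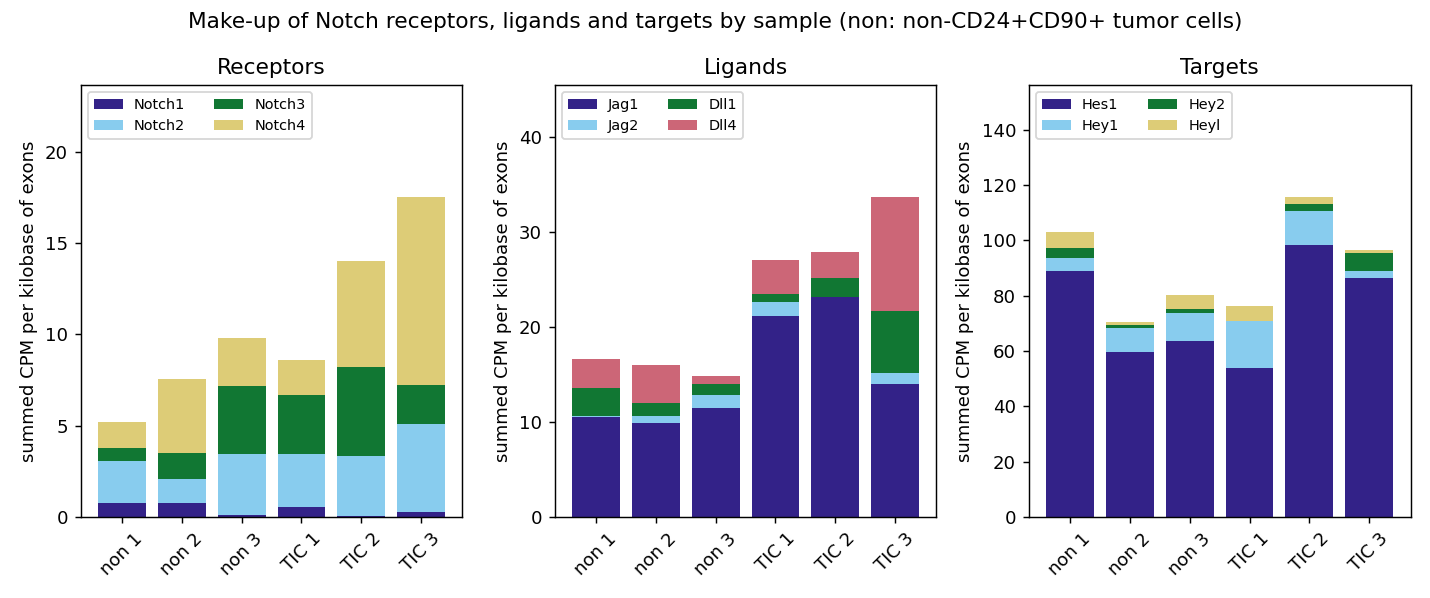
Summed CPM per kilobase of exons of the Notch receptors and of the ligands in each of the 6 samples, with each bar divided by gene. The ligand sum is 27.1 to 33.7 in TICs and 14.9 to 16.7 in non-CD24+CD90+ tumor cells, and in TIC replicate 3 Dll4 and Dll1 take the place of part of Jag1.

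The target genes did not differ between the groups beyond the spread of the samples. Hes1 (ENSMUSG00000022528, chr16:30064384-30067796, plus strand), a transcriptional repressor and the most studied target of the pathway, had 181, 121 and 130 CPM in the non-CD24+CD90+ tumor cells and 110, 200 and 176 CPM in TICs. TIC replicate 1 was the lowest and TIC replicate 2 the highest of all samples. The fold change of Hes1 was 1.13 (95% interval 0.713 to 1.78, log2 fold change 0.17, SE 0.34, adjusted p = 1 in edgeR's exactTest). Without TIC replicate 2 the log2 fold change was -0.0063. The interval includes no change and does not show that the level of Hes1 was the same in both groups. Hes1 is also controlled by other pathways.

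Hey1 and Heyl are repressors that act with or in place of Hes1 and are typical of vascular cells. Both were lowest or nearly lowest in the TIC sample in which Notch4 and Dll4 were highest. Hey2, another Hey gene outside the 10, went the other way and was highest in that sample (29.8 CPM). Hey1 (ENSMUSG00000040289, chr3:8663359-8667256, minus strand) had 15.5, 29.2 and 33.0 CPM in the non-CD24+CD90+ tumor cells and 54.6, 40.1 and 8.05 CPM in TICs. The TIC samples thus lay on both sides of the other group, and the log2 fold change was 0.40 (SE 0.71, 95% interval -0.98 to 1.79, adjusted p = 1 in edgeR's exactTest). It was 0.89 without TIC replicate 3 and -0.087 without TIC replicate 1. Heyl (ENSMUSG00000032744, chr4:123233556-123249875, plus strand) had 29.9, 4.43 and 25.5 CPM in the non-CD24+CD90+ tumor cells and 28.4, 13.8 and 4.49 CPM in TICs. Low values occurred in a sample of each group, and the log2 fold change was -0.36 (SE 0.94, 95% interval -2.21 to 1.49, adjusted p = 1 in edgeR's exactTest). Without TIC replicate 3 the log2 fold change of Heyl was 0.10, and without TIC replicate 1 it was -1.11.

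Per kilobase Hes1 was by far the most abundant of the 10 genes, with means of 79.7 CPM per kilobase in TICs and 70.7 in non-CD24+CD90+ tumor cells. Hey1 had 10.5 and 7.93, and Heyl 3.04 and 3.90. The order of the 10 genes per kilobase in TICs was Hes1, Jag1, Hey1, Dll4, Notch4, Notch2, Dll1, Heyl, Jag2 and Notch1. Each gene from Jag1 downward overlapped with the next in its per-sample values, whereas the lowest value of Hes1 was above the highest of Jag1.

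**Figure D3:**
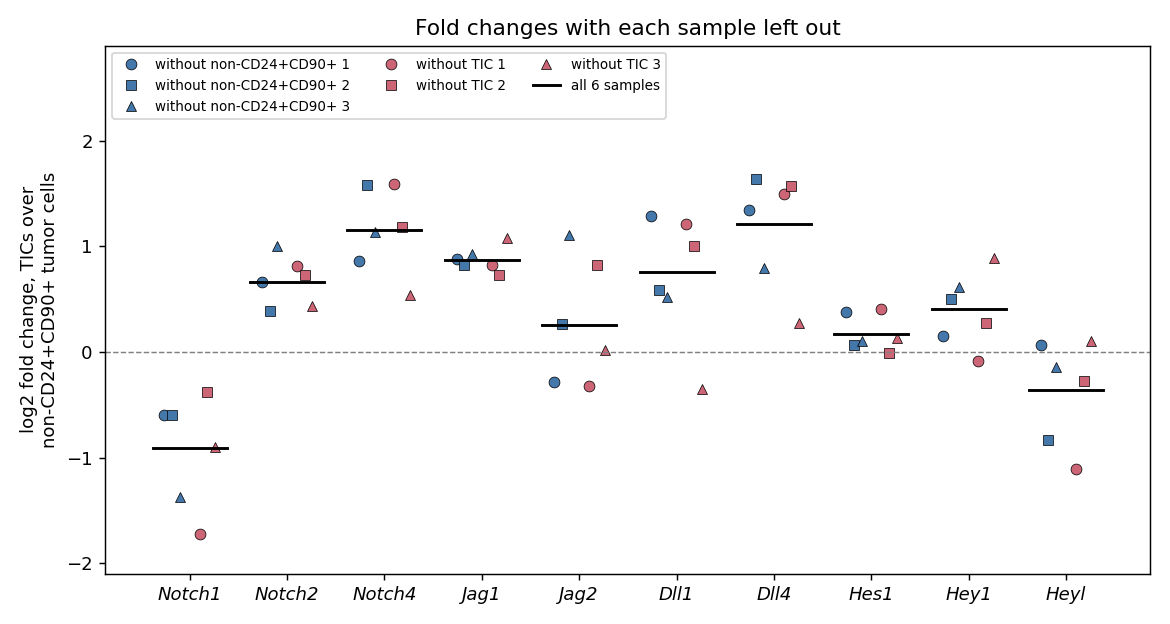
Log2 fold change (TIC over non-CD24+CD90+ tumor cells) of each of the 10 genes from all 6 samples and with each sample left out in turn. Notch2, Notch4, Jag1 and Dll4 stay above 0 and Notch1 below 0 in every case, whereas Jag2, Dll1, Hes1, Hey1 and Heyl cross 0.

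The 4 genes with their highest value of all samples in TIC replicate 3 (Notch2, Notch4, Dll1 and Dll4) were accompanied by high levels of endothelial genes there. This was not particular to endothelial genes. The same sample had the highest sums of pericyte or smooth muscle (1732 CPM), fibroblast (11310 CPM) and adipocyte markers (1225 CPM). Its luminal epithelial sum was the lowest of all samples (6334 CPM) and its leukocyte sum the lowest of the TICs (208 CPM). The share of all genes that were highest in this sample is not given here. The summed CPM of 15 endothelial markers was 276 to 359 in non-CD24+CD90+ tumor cells and 360, 714 and 1709 in TIC replicates 1, 2 and 3. All 15 markers had a positive log2 fold change (median 1.21), 8 had an unadjusted p-value below 0.05 in exactTest and Robo4 (named after its values were seen) was the only one to pass the threshold. Without TIC replicate 3, 14 of the 15 had a positive log2 fold change (median 0.71), 1 had an unadjusted p-value below 0.05 in exactTest and 0 passed the threshold. Robo4 was also not called without replicate 1 or without replicate 3 of the other tumor cells, whereas 7 markers were called without TIC replicate 1. The number called over all genes was also highest in that fit (323 of 11688). Vwf, Sox17 and Sox18 had 0 counts in 1 or 2 of the non-CD24+CD90+ tumor cell samples, and no marker was at 0 in all samples. Pecam1, an adhesion molecule of endothelial cells, had 37.7, 76.8 and 70.3 CPM in TICs and 18.8 to 44.5 CPM in the other tumor cells, and Cdh5, the cadherin of endothelial junctions, had 6.04, 12.6 and 33.2 CPM in TICs and 7.88 to 9.87 CPM in the other tumor cells. The part of endothelial RNA in the values of the Notch genes was not tested. From TIC replicate 1 to TIC replicate 2 both the endothelial sum and Jag1 were higher (360 and 714 CPM, 123 and 135 CPM), and in TIC replicate 3 the sum was highest and Jag1 lowest of the TICs.

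**Figure D4:**
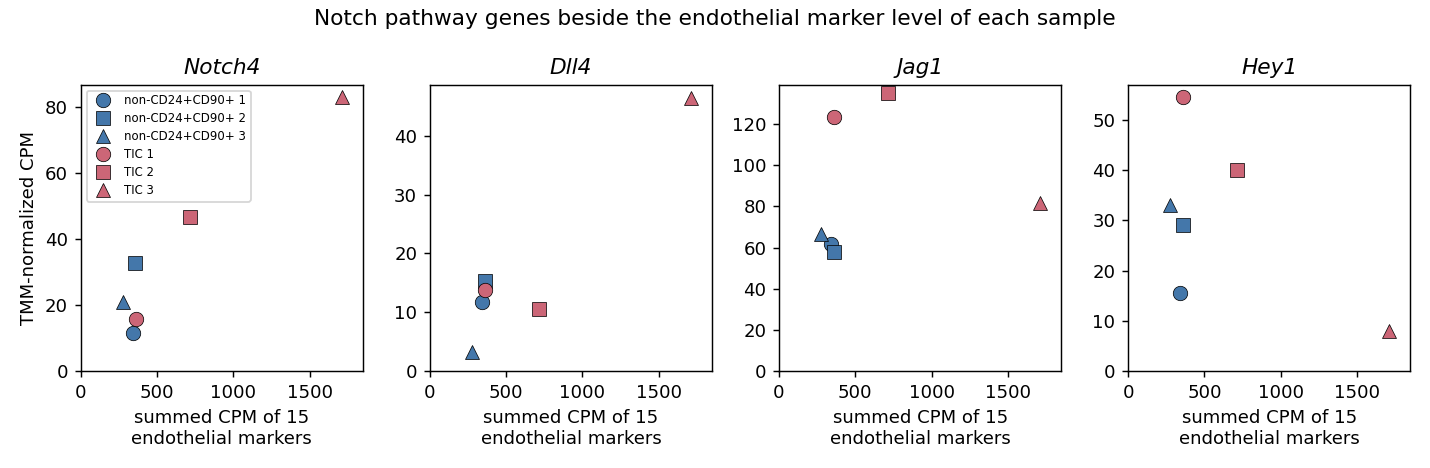
CPM of Notch4, Dll4, Jag1 and Hey1 in each of the 6 samples against the summed CPM of 15 endothelial markers in the same sample. TIC replicate 3, at 1709 CPM of endothelial markers, has the highest Notch4 (83.3 CPM) and Dll4 (46.4 CPM), the lowest Jag1 of the TICs (81.7 CPM) and the lowest Hey1 of all samples (8.05 CPM).

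Among markers of other cell types, the fibroblast list held the largest number of genes called higher in TICs. The lists differ in length, and over all genes tested 166 of 12192 were called higher. The summed CPM of 12 fibroblast markers was 3102 to 3473 in non-CD24+CD90+ tumor cells and 8082 to 11310 in TICs, and 7 of the 11 that passed the filter on low counts were called higher (edgeR exactTest, adjusted p below 0.1). Among them was Dcn, a matrix proteoglycan (adjusted p = 0.00799 in edgeR's exactTest). The 11 markers of pericytes or smooth muscle summed to 617 to 809 CPM and 1073 to 1732 CPM, respectively, and Rgs5, a pericyte gene, was the only one called, with 528 to 800 CPM in TICs and 243 CPM in each of the other samples. Rgs5 made up much of that sum, and the smooth muscle genes Acta2, Myh11 and Cnn1 had log2 fold changes of -0.01, 0.07 and -0.05. Luminal epithelial markers summed to 6334 to 7848 CPM in TICs and 9618 to 9735 CPM in the other tumor cells, with 14 of the 15 that passed the filter at a negative log2 fold change and 0 called. Of 10 basal or myoepithelial markers 1 was called, Vim, which is also a gene of stromal cells, and the sums overlapped (1253 to 1912 CPM and 1373 to 1692 CPM in TICs). Leukocyte markers summed to 71.2 to 104 CPM and 208 to 254 CPM in TICs, with Lyz2 and Cd74, which made up most of the sum, called higher. The other 2 that passed the filter had negative log2 fold changes, -1.69 for Csf1r and -0.31 for Cd68 (adjusted p = 1 for each in edgeR's exactTest), and Adgre1 and Cd3e were at 0 in all samples. The 6 adipocyte markers reduced to Fabp4, which endothelial cells also express and which was called higher (192, 494 and 1225 CPM in TICs and 56.5 to 137 CPM in the other samples), and Adipoq, Plin1, Plin4 and Lep were at 0 throughout. Acta2, Myh11, Cnn1, Vim, Lyz2, Cd74, Csf1r, Cd68 and Fabp4 are named after their values were seen. The part of these cell types in the level of Jag1 and the other Notch genes was not tested.

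The genes whose log2 CPM followed that of Jag1 most closely over the 6 samples were Lrriq1 (Pearson r = 0.984), Pdgfra (0.982), Osbpl8 (0.978), Scn2a (0.976) and Serping1 (0.972). With 6 samples, 86 of the other genes had an r above 0.9, so that this order is a description of these samples. Pdgfra, a growth factor receptor of fibroblasts, had 73.2, 84.5 and 59.0 CPM in TICs and 42.6, 43.8 and 51.5 CPM in the other tumor cells. Its TIC samples ranked as for Jag1, as did those of Lrriq1, Osbpl8 and Serping1, which were picked by the same correlation. Of the other fibroblast markers, Dpt, Col3a1, Pi16 and Clec3b ranked this way, whereas Dcn, Lum, Fap, Col1a1, Col1a2 and Mfap5 did not. The fibroblast sum was highest in TIC replicate 3 (11310 CPM), where Jag1 was lowest of the TICs.

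Of 59 further genes of the pathway, 50 passed the filter on low counts and 0 were called, with a median log2 fold change of 0.08. An unadjusted p-value below 0.05 in exactTest was reached by 5 of the 50 tested, against 7.85% of all genes. Of the 5, 3 had higher and 2 had lower levels in TICs. With Jag1 included, the number was 6 of the 60 pathway genes tested. It was 2 without TIC replicate 2 and also 2 without replicate 2 of the other tumor cells. Without TIC replicate 3 it was 3, and without TIC replicate 1 it was 8. Over all genes the number moved in the same fits, to 877 of 11786 without TIC replicate 2 and 721 of 11643 without replicate 2 of the other tumor cells. It was 822 of 11810 without TIC replicate 3 and 1217 of 11688 without TIC replicate 1. Ep300, a histone acetyltransferase recruited by the nuclear complex, had 91.2, 69.2 and 64.9 CPM in the non-CD24+CD90+ tumor cells and 117, 115 and 160 CPM in TICs (log2 fold change 0.80, SE 0.34, adjusted p = 0.408 in edgeR's exactTest). Numbl, a relative of the Notch inhibitor Numb, had 0.876, 11.8 and 9.30 CPM against 15.1, 45.5 and 27.6 CPM in TICs (log2 fold change 1.999, SE 0.93, adjusted p = 0.604 in edgeR's exactTest). The third, Nedd4, a ubiquitin ligase, had 106, 175 and 162 CPM against 242, 252 and 212 CPM in TICs (log2 fold change 0.67, SE 0.31, adjusted p = 0.515 in edgeR's exactTest). All TIC samples were above the other samples for these 3 genes. Of the 50 genes, 6 had all TIC samples above the others and 2 had all of them below. Groups that did not overlap made up 15.2% of all genes tested.

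The 2 genes with lower levels were Furin, the convertase that cleaves Notch receptors on their way to the surface, and Dtx3l, a ubiquitin ligase of the Deltex family. Furin had 129, 185 and 177 CPM in the non-CD24+CD90+ tumor cells and 103, 103 and 107 CPM in TICs (log2 fold change -0.65, SE 0.31, adjusted p = 0.560 in edgeR's exactTest). Dtx3l had 83.5, 116 and 111 CPM against 75.7, 51.3 and 36.8 CPM in TICs (log2 fold change -0.92, SE 0.39, adjusted p = 0.418 in edgeR's exactTest). The groups did not overlap for either gene, and these are the 2 counted above with all TIC samples below. Furin was 1 of 10 proteases and subunits that cleave the receptor, of which 7 had a negative and 3 a positive log2 fold change (median -0.48).

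In the nuclear complex 8 of 9 genes passed the filter, with a median log2 fold change of 0.60, and 13 corepressors had a median of 0.07. The ligand ubiquitin ligases, which are needed for ligand endocytosis and receptor activation, had a median of 0.96 over 4 genes and the glycosyltransferases that modify the receptor a median of -0.15 over 4 of 5. The inhibitors and regulators of receptor turnover had a median of 0.16 over 8 of 10. None of these groups held a called gene, and the single genes ranged from -2.28 to 2.64 over the whole set of 50.

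**Figure D5:**
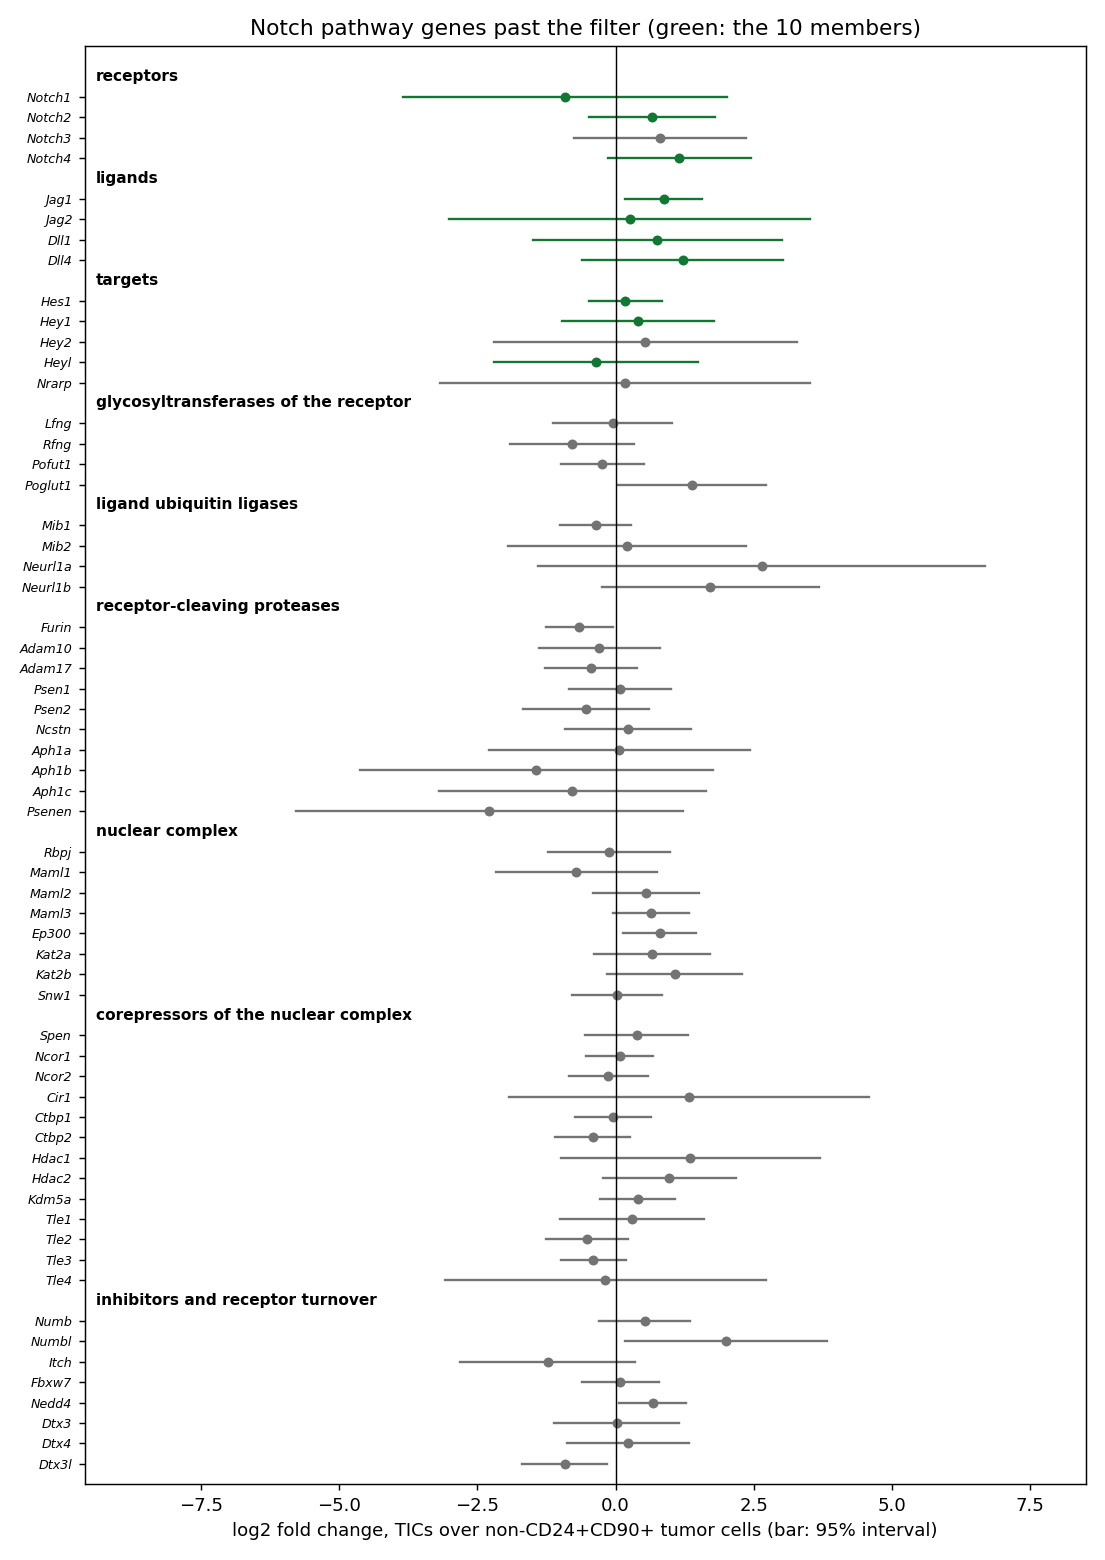
Log2 fold change (TIC over non-CD24+CD90+ tumor cells) with 95% interval for the 60 Notch pathway genes that passed the filter on low counts, grouped by role. No gene passed an adjusted p-value of 0.1, and Jag1, Ep300, Numbl and Nedd4 on the higher side and Furin and Dtx3l on the lower side had an unadjusted p-value below 0.05 in exactTest.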

How the data were processed

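The deposited values are raw read counts per Ensembl gene, made by the authors. Per the labels and the study's methods, RNA of sorted cells (120 ng per library) was sequenced on the Illumina platform, and reads were trimmed with Trimmomatic 0.32, aligned to GRCm38 with STAR 2.4.0, freed of reads without a unique alignment with SAMtools 1.1 and counted with HTSeq. The annotation release and strand setting are not given in the sources used here.

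From the counts, genes were kept where 3 or more samples exceeded 1 CPM (12192 of 41388), since the study gives no value for its CPM minimum. The groups were compared with exactTest of edgeR 4.0.16 (R 4.3.3, TMM factors, tagwise dispersions), with Benjamini-Hochberg adjustment over all genes kept and a threshold of 0.1, as in the study. Standard errors came from the negative binomial fit. Alternatives were edgeR's quasi-likelihood test, DESeq2 1.42.0, other normalizations and filters, and each sample left out, the last also for the summed levels and marker lists (chosen after seeing the data). Symbols, exon lengths and coordinates were taken from GENCODE M21 (40340 genes with a symbol). The functions were tested on simulated data.

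The members, pathway genes and marker lists were chosen with earlier results of these data known. Named are all members, Notch3 and Dll3, other pathway genes with an unadjusted p-value below 0.05 in exactTest, defining markers, and the 5 genes most correlated with the member of smallest p.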

Additional observations from a re-analysis of the deposited data

How the results depend on the processing

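None of the 10 Notch genes and none of the other pathway genes passed an adjusted p-value of 0.1 under any alternative (edgeR's quasi-likelihood test, DESeq2, RLE factors, library size alone, other filters, each sample left out). At an unadjusted p-value below 0.05, exactTest, the quasi-likelihood test and DESeq2 each gave 1 of the 10 genes. With a sample left out the number was 0 without replicate 2 of either group and 2 (Jag1 and Notch4) without TIC replicate 1. The number over all genes moved as well. It was 877 of 11786 without TIC replicate 2, 721 of 11643 without replicate 2 of the other tumor cells and 1217 of 11688 without TIC replicate 1. Leaving aside settings that keep the fitted fold change (another threshold, the quasi-likelihood test), 7 of 108 alternative log2 fold changes of the 10 genes reversed, all with a sample left out. With each sample left out, the log2 fold change ranged from -0.33 to 1.11 for Jag2, from -0.35 to 1.29 for Dll1, from -0.0063 to 0.40 for Hes1, from -0.087 to 0.89 for Hey1 and from -1.11 to 0.10 for Heyl. A filter of 10 counts in every sample gave no value for Notch1 and Jag2. Among all genes, 189 were called by exactTest (87.8% higher in TICs), 50 by the quasi-likelihood test (98%), 306 by DESeq2 (75.5%), 112 with no filter, 116 at an adjusted p-value below 0.05, and 72 (without non-CD24+CD90+ tumor cells replicate 3) to 323 (without TIC replicate 1) with a sample left out. The cause of these differences in number was not tested, other than that the stricter threshold calls fewer genes by construction. No paired analysis was possible because the labels give no replicate numbers shared between the groups, although the groups may share mice. Depth limits Jag2 and Notch1, with 1 and 4 counts in TIC replicate 2.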

Other observations

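Several Notch pathway genes outside the 10 had 0 counts in some or all samples. Dlk2, a relative of the Delta-like ligands, had 10.2 CPM (77 counts) in TIC replicate 3 and 0 counts in the other 5 samples. Hes7 had 10.2 CPM in replicate 3 of the non-CD24+CD90+ tumor cells and 0 counts elsewhere. Hey2, a Hey family repressor of vascular cells, had 15.6, 4.88 and 7.15 CPM in the non-CD24+CD90+ tumor cells and 0, 10.4 and 29.8 CPM in TICs. Dlk1 and Hes5 had 0 counts in all 6 samples. These genes were named after their values were seen.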
